A study of Mus musculus with 6 samples.

Results

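Toll-like receptors are the membrane sensors with which innate immune cells recognise components of bacteria, viruses and damaged cells, and *Cd14* is the coreceptor that hands lipopolysaccharide and lipoproteins to several of them. The members described here are the 10 genes *Tlr1* to *Tlr9* and *Cd14*, found by gene name among the 54532 genes of the count table. All 10 had counts and all 10 were among the 15449 genes tested. RNA-Seq was carried out on livers of 6 mice on a C57BL/6 background, with 1 library per mouse. The 3 g*Spns1*-cKO mice were *Spns1* fl/fl animals carrying Rosa26 Cre-ERT2, a Cre recombinase that is present throughout the body and becomes active with tamoxifen. Tamoxifen was given by intraperitoneal injection at 50 mg/kg on postnatal days 11, 13 and 15 and removes exon 3 of *Spns1*, which encodes a lysosomal transporter of lysolipids. The 3 control mice are described in the study's methods as *Spns1* fl/fl littermates without Cre, while the sample labels call them wild type. Whether the controls also received tamoxifen is not given in the sources used here. Because Cre-ERT2 is driven from Rosa26, the deletion is not limited to hepatocytes and can also affect immune cells that carry Toll-like receptors. The comparison asked which receptor transcripts differ between livers with and without *Spns1*.

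The receptors fall into a surface group and an endosomal group. TLR2 pairs with TLR1 or TLR6 to recognise bacterial lipoproteins, TLR4 recognises lipopolysaccharide together with MD-2 (encoded by *Ly96*), and TLR5 recognises flagellin. TLR3 recognises double-stranded RNA, TLR7 and TLR8 recognise single-stranded RNA, and TLR9 recognises unmethylated CpG DNA, all from within endosomes and lysosomes, where these receptors are cut by proteases before they signal. In liver, Kupffer cells, the resident macrophages, meet bacterial products from the gut through these receptors. In GRCm38, *Tlr2* lies at chr3:83836272-83841767 (minus strand), *Tlr3* at chr8:45395665-45411080 (minus), *Tlr4* at chr4:66827584-66930284 (plus), *Tlr5* at chr1:182954788-182976044 (plus) and *Tlr9* at chr9:106222598-106226883 (plus). *Tlr7* (chrX:167304929-167330558) and *Tlr8* (chrX:167242696-167264329), both on the minus strand, are neighbours, as are *Tlr1* and *Tlr6*, whose positions are given with their shared sequence.

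The libraries held between 30350002 and 35295611 counts. A count of 3, taken as the floor of detection, corresponded to between 0.0763 and 0.119 CPM (counts per 1000000 counts of the library, with the library total scaled by TMM, edgeR's correction for composition). TMM factors ran from 0.834 to 0.873 for the control mice and from 1.16 to 1.18 for the g*Spns1*-cKO mice, so the scaling moves every ratio between the groups. *Spns1* itself had 1008, 1562 and 875 counts in control livers against 642, 1175 and 698 in g*Spns1*-cKO livers, for a log2 fold change of -0.87 ± 0.25 (SE, edgeR adjusted p = 0.0300). This call was lost with scaling by library size only, where the log2 fold change was -0.43 with an edgeR adjusted p of 0.213, and without the second control liver or the first or the third g*Spns1*-cKO liver, at edgeR adjusted p values of 0.0785 to 0.0910. Counts over the whole gene include the exons that the deletion leaves in place, so they check the genotype only in part. *Xist* was at 5 counts or fewer and the Y-linked gene *Ddx3y* was at 1731 to 2568 counts in every library, so the groups did not differ in sex by these genes.

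Of the 10 members, 9 rose and 1 fell in g*Spns1*-cKO livers by edgeR's quasi-likelihood test. Over all genes tested, 21.3% were called higher and 20.5% lower. The median log2 fold change was 1.93 over the members and 0.0138 over all genes tested. In all 10 the 3 g*Spns1*-cKO livers lay wholly above or wholly below the 3 control livers, which was also so for 54.1% of all genes tested. The exact two-sided permutation p was 0.1 for each member, the smallest that 3 against 3 mice can give. *Tlr6*, *Tlr7*, *Tlr8* and *Tlr9* had fewer than 10 counts in at least 1 control liver, so they entered the test only through the group where they were high. Markers of macrophages also differed between the groups. Their summed level was between 78.8 and 114 CPM in control livers and between 339 and 467 CPM in g*Spns1*-cKO livers, with 7 of 7 genes called higher. In whole liver, a change in the number of cells of a type and a change in RNA per cell cannot be told apart.

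**Figure D1:**
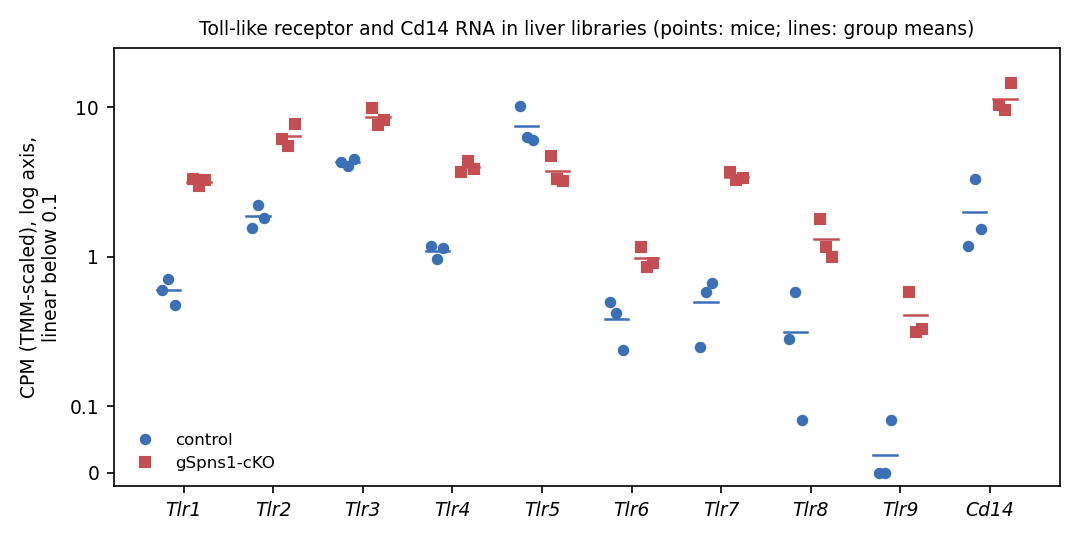
CPM of each member in each library on a log axis that is linear below 0.1, with points for mice and a line at each group mean. *Tlr5* is the one gene of the 10 in which the g*Spns1*-cKO points (3.23 to 4.69 CPM) lie below the control points (6.004 to 10.2 CPM), and *Tlr9* has 2 control points at 0.

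Among the surface receptors and their coreceptor, *Cd14* had the largest fitted fold change, with *Tlr1* close behind. *Cd14* had 33, 102 and 39 counts in control livers against 373, 366 and 568 in g*Spns1*-cKO livers. The second control liver was the highest of its group and still lay well below every g*Spns1*-cKO liver. The level rose from 2.01 ± 1.14 CPM to 11.4 ± 2.63 CPM (SD, n = 3), for a log2 fold change of 2.50 ± 0.37 (edgeR adjusted p = 0.00122). Without 1 library at a time, the log2 fold change stayed between 2.21 and 3.07.

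*Tlr2*, the common partner of the lipoprotein receptors, had 44, 68 and 46 counts in control livers against 220, 211 and 306 in g*Spns1*-cKO livers. Its level rose from 1.86 ± 0.324 to 6.46 ± 1.18 CPM, with a log2 fold change of 1.79 ± 0.23 (edgeR adjusted p = 0.000222). The third g*Spns1*-cKO liver was the highest of its group for *Tlr2*, as it was for *Cd14*. *Tlr4*, the lipopolysaccharide receptor, had 33, 30 and 29 counts in control livers against 133, 169 and 151 in g*Spns1*-cKO livers. Neither group spread widely, and the log2 fold change was 1.86 ± 0.23 (1.10 ± 0.108 to 3.98 ± 0.373 CPM, edgeR adjusted p = 0.000220).

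The partners of *Tlr2* rose as well. *Tlr1* had 17, 22 and 12 counts in control livers against 119, 115 and 128 in g*Spns1*-cKO livers, for a log2 fold change of 2.40 ± 0.28 (0.597 ± 0.120 to 3.18 ± 0.166 CPM, edgeR adjusted p = 0.000125). *Tlr6* had 14, 13 and 6 counts in control livers against 42, 33 and 36 in g*Spns1*-cKO livers. Its log2 fold change was 1.33 ± 0.41 (0.386 ± 0.134 to 0.980 ± 0.164 CPM, edgeR adjusted p = 0.0242). *Tlr6* was the member whose call was least firm at this depth. It was lost without the second control liver (1.39, edgeR adjusted p = 0.0523), the third control liver (1.08, 0.0771), the first g*Spns1*-cKO liver (1.18, 0.0730) or the third g*Spns1*-cKO liver (1.37, 0.0651), although the direction stayed the same.

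*Tlr1* and *Tlr6* are neighbouring genes on the minus strand of chromosome 5, at chr5:64924679-64933563 and chr5:64952031-64960097 (GRCm38), and part of their coding sequence is identical. Of all windows of 50 bases in their transcripts, 454 were present in both, which is 13.6% of those of *Tlr1* and 12.3% of those of *Tlr6*. Reads that lie wholly in such windows cannot be assigned to 1 of the genes, and how the counting treated them is not given in the sources used here, so the values of both carry that uncertainty. The longest identical run spans 229 bases, at chr5:64925537-64925765 in *Tlr1* and chr5:64953828-64954056 in *Tlr6*, within the coding sequence of both. It is shown on the strand of the genes because it marks where counts of the pair may mix.
*Tlr1* and *Tlr6*: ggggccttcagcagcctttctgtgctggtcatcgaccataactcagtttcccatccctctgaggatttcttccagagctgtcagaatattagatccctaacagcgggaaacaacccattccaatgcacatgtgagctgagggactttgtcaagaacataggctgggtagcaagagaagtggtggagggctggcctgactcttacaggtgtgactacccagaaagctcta

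*Tlr5*, the flagellin receptor, was the only member that fell. It had 288, 196 and 152 counts in control livers against 169, 127 and 127 in g*Spns1*-cKO livers. The raw counts of the groups overlapped, since the first g*Spns1*-cKO liver lay above the third control liver, whereas the scaled levels did not, at 10.2, 6.36 and 6.004 CPM against 4.69, 3.31 and 3.23 CPM. The level was 7.53 ± 2.35 CPM in control livers and 3.74 ± 0.824 CPM in g*Spns1*-cKO livers, for a log2 fold change of -1.01 ± 0.25 (edgeR adjusted p = 0.00869). The log2 fold change ran from -1.21 to -0.74 when 1 library at a time was left out. The smallest fall came without the first control liver (edgeR adjusted p = 0.0325). With scaling by library size only, the log2 fold change was -0.57 and the call was lost (edgeR adjusted p = 0.0799), while under that scaling the median of all genes moved from 0.0138 to 0.457.

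All 4 endosomal receptors were called higher in g*Spns1*-cKO livers, but *Tlr7*, *Tlr8* and *Tlr9* entered the test only through the group where they were high. Their calls therefore say little about the endosomal receptors as a group. *Tlr3* had the smallest fitted rise among the members, with 121, 125 and 115 counts in control livers against 355, 294 and 323 in g*Spns1*-cKO livers. Its log2 fold change was 1.00 ± 0.17 (4.30 ± 0.243 to 8.57 ± 1.15 CPM, edgeR adjusted p = 0.00117), and the groups were far apart compared with the spread within each. An antisense gene model, *Gm45542*, shares 381 exonic bases with *Tlr3*, and it had 0 counts in every library.

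*Tlr7* had 7, 18 and 17 counts in control livers against 133, 125 and 132 in g*Spns1*-cKO livers. The 3 g*Spns1*-cKO livers differed little from each other, and the log2 fold change was 2.77 ± 0.34 (0.502 ± 0.223 to 3.43 ± 0.230 CPM, edgeR adjusted p = 0.000187). *Tlr8*, its neighbour on the X chromosome, had 8, 18 and 2 counts in control livers against 64, 45 and 39 in g*Spns1*-cKO livers. The control livers were widely spread, with the third at 2 counts, and the log2 fold change was 2.00 ± 0.55 (0.316 ± 0.254 to 1.31 ± 0.412 CPM, edgeR adjusted p = 0.0143). Without 1 library at a time it lay between 1.56 and 2.79, the highest being without the second control liver.

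*Tlr9* was at the limit of detection in control livers, with 0, 0 and 2 counts, and had 21, 12 and 13 counts in g*Spns1*-cKO livers. The ratio of the summed counts per scaled library size, 46 counts against 2, was 17.04, with an exact 95% interval of 4.46 to 145 that covers counting error only. The fitted log2 fold change of 3.89 ± 0.92 (edgeR adjusted p = 0.00699) depends on the prior count of the fit. It became 6.82 without the third control liver, which held both control counts, and 3.30 without the second control liver.

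**Figure D2:**
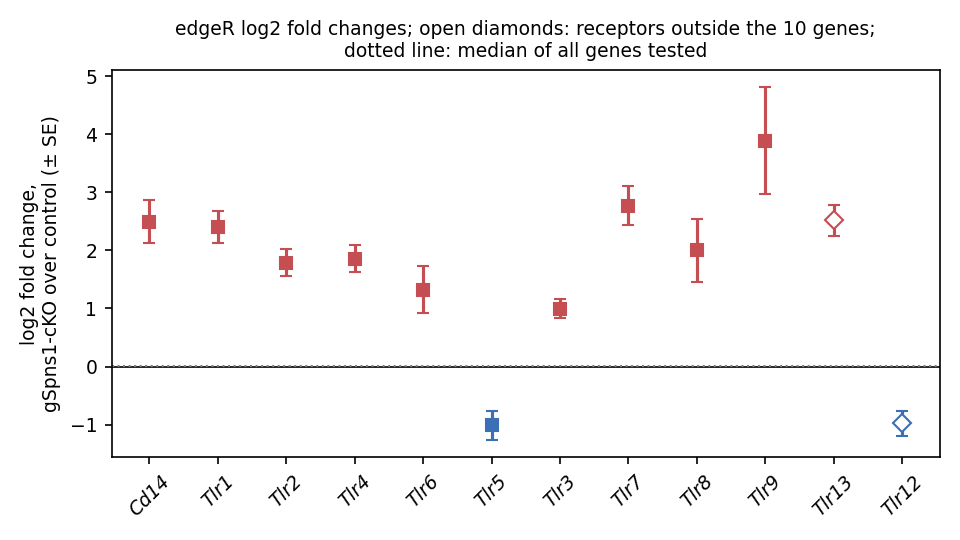
Log2 fold change of each member and of *Tlr13* and *Tlr12* (open diamonds), g*Spns1*-cKO over control, with bars for ± SE from edgeR; a dotted line marks the median of all genes tested, 0.0138. *Tlr5* (-1.01) and *Tlr12* (-0.98) are the points below 0, and the bar of *Tlr9* (3.89 ± 0.92) is the longest.

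Divided by gene length, so that genes can be compared, the order of the members differed between the groups. In control livers the level per kb was highest for *Tlr5* (1.57 ± 0.490 CPM per kb) and *Cd14* (1.28 ± 0.727), which overlapped each other, followed by *Tlr3* (0.826 ± 0.0466), which overlapped *Cd14*, and *Tlr2* (0.618 ± 0.107), whose values lay below those of *Tlr3* and above those of *Tlr4*. *Tlr4* (0.198), *Tlr1* (0.179), *Tlr7* (0.123), *Tlr6* (0.103), *Tlr8* (0.0881) and *Tlr9* (0.00757) came next, and each of these overlapped its neighbour in the order. In g*Spns1*-cKO livers *Cd14* stood first at 7.28 ± 1.67 CPM per kb, above every value of *Tlr2* (2.14 ± 0.392). *Tlr2* overlapped *Tlr3* (1.65 ± 0.220), and below both came *Tlr1* (0.952), *Tlr7* (0.841), *Tlr5* (0.781) and *Tlr4* (0.716), each overlapping the next. *Tlr8* (0.366) and *Tlr6* (0.263) lay below *Tlr4* and overlapped each other, and *Tlr9* (0.118) lay below all values of *Tlr6*.

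The make-up of the receptor transcripts moved away from *Tlr5*. Summed over *Tlr1* to *Tlr9*, the level was 4.15, 3.65 and 3.35 CPM per kb in control livers against 8.43, 7.11 and 7.93 CPM per kb in g*Spns1*-cKO livers. *Tlr5* made up 51.5%, 36.4% and 37.4% of this sum in control livers against 11.6%, 9.70% and 8.50% in g*Spns1*-cKO livers. The shares of *Tlr2* (12.5%, 20.1% and 18% to 24.0%, 25.6% and 32.5%), *Tlr1* (4.35%, 5.85% and 4.23% to 11.7%, 12.6% and 12.3%) and *Tlr7* (1.47%, 3.92% and 4.91% to 10.7%, 11.2% and 10.4%) were larger in every g*Spns1*-cKO liver than in any control liver. The share of *Tlr3* overlapped between the groups (19.9%, 21.4% and 26.1% against 22.5%, 20.7% and 19.9%). Together the endosomal receptors *Tlr3*, *Tlr7*, *Tlr8* and *Tlr9* held 23.3%, 29.8% and 32.3% of the sum in control livers against 41.0%, 37.7% and 34.9% in g*Spns1*-cKO livers. These shares are relative, so a fall of 1 gene raises the shares of the others. The larger endosomal share goes with the smaller share of *Tlr5*. It does not show that the endosomal receptors rose more than *Tlr1*, *Tlr2*, *Tlr4* and *Tlr6*, and shares without *Tlr5* were not computed.

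**Figure D3:**
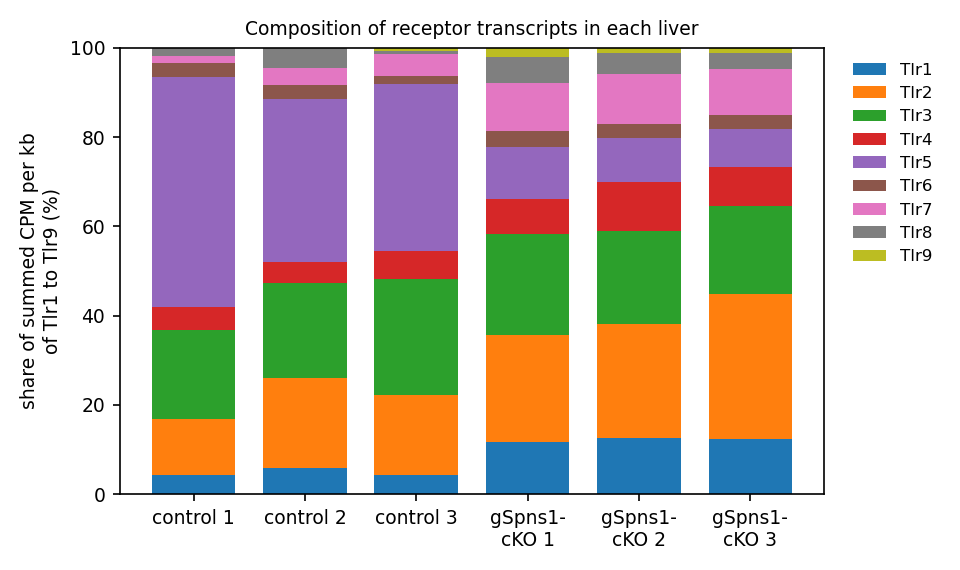
Share of each receptor in the summed CPM per kb of *Tlr1* to *Tlr9*, in percent, 1 stacked bar for each liver. The *Tlr5* part takes 36.4% to 51.5% of the control bars and 8.50% to 11.6% of the g*Spns1*-cKO bars.

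Because macrophage markers were higher in g*Spns1*-cKO livers, each member was also expressed as a percentage of the summed counts of 7 macrophage markers (*Adgre1*, *Csf1r*, *Cd68*, *Mertk*, *Fcgr1*, *Lyz2* and *Aif1*), as a description with no test. The share of all genes without overlap was not computed for such ratios, so the counts of members have no background here. *Adgre1*, which encodes the macrophage antigen F4/80, had a log2 fold change of 2.14 ± 0.24 (edgeR adjusted p = 0.000210). On this scale 6 of the 10 members overlapped between the groups, namely *Cd14*, *Tlr1*, *Tlr2*, *Tlr4*, *Tlr6* and *Tlr8*, with log2 ratios of the group means between -0.73 and 0.57. *Cd14*, for example, was at 1.49%, 3.37% and 1.35% of the macrophage marker counts in control livers against 2.22%, 2.73% and 4.25% in g*Spns1*-cKO livers. *Tlr4* was at 1.49%, 0.992% and 1.00% against 0.792%, 1.26% and 1.13%.

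*Tlr7* and *Tlr9* were higher relative to these markers without overlap. *Tlr7* was at 0.316%, 0.595% and 0.588% in control livers against 0.792%, 0.931% and 0.988% in g*Spns1*-cKO livers. *Tlr9* was at 0, 0 and 0.0692% against 0.125%, 0.0894% and 0.0973%, from the few counts given above. *Tlr3* and *Tlr5* were lower relative to macrophage markers without overlap. *Tlr3* was at 5.46%, 4.13% and 3.98% against 2.11%, 2.19% and 2.42%, and *Tlr5* was at 12.99%, 6.48% and 5.26% against 1.01%, 0.946% and 0.951%. *Lyz2* had the highest level of the 7 macrophage markers (means of 45.4 and 228 CPM) and the largest log2 fold change (2.33). *Mertk* (1.01) and *Aif1* (0.96) rose about as much as *Tlr3* (1.00). How the *Tlr3* ratio changes with the weighting of the list was not computed. With the summed markers of Kupffer cells in the denominator (*Clec4f*, *Vsig4*, *Timd4*, *Cd5l*, *Marco* and *Folr2*), *Tlr1* was also higher without overlap. On that scale *Tlr3* was again lower without overlap (3.40%, 2.53% and 2.11% against 1.45%, 1.78% and 1.65%), as was *Tlr5*.

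Other denominators, chosen after the values were seen, gave other counts, again with no share over all genes beside them. Relative to 6 monocyte markers, 5 members were higher without overlap (*Cd14*, *Tlr1*, *Tlr2*, *Tlr7* and *Tlr9*) and *Tlr5* was lower. The sum of 6 markers of sinusoidal endothelium rose by 0.64 on the log2 scale, less than the fitted rise of each of the 9 members other than *Tlr5*. Relative to these markers, the 9 members were higher without overlap. *Tlr3* had the smallest of these ratios (2.95%, 2.66% and 3.31% against 3.96%, 3.79% and 3.61%), and *Tlr5* was lower without overlap (7.01%, 4.17% and 4.37% against 1.89%, 1.64% and 1.42%). Relative to 6 hepatocyte markers, the same 9 members were higher without overlap and *Tlr5* overlapped between the groups, with a log2 ratio of -0.31. Summed hepatocyte markers were between 94509 and 108104 CPM in control livers and between 57091 and 65926 CPM in g*Spns1*-cKO livers. Of these 6 markers 3 were called lower and 3 were not called, and *Cps1* was higher without overlap (log2 fold change 0.36). The sum mostly follows *Alb*, at a mean of 69312 CPM in control livers and 41847 CPM in g*Spns1*-cKO livers. The mean sum in g*Spns1*-cKO livers was 0.632 of that in control livers, which raises the ratio of any gene with unchanged CPM.

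**Figure D4:**
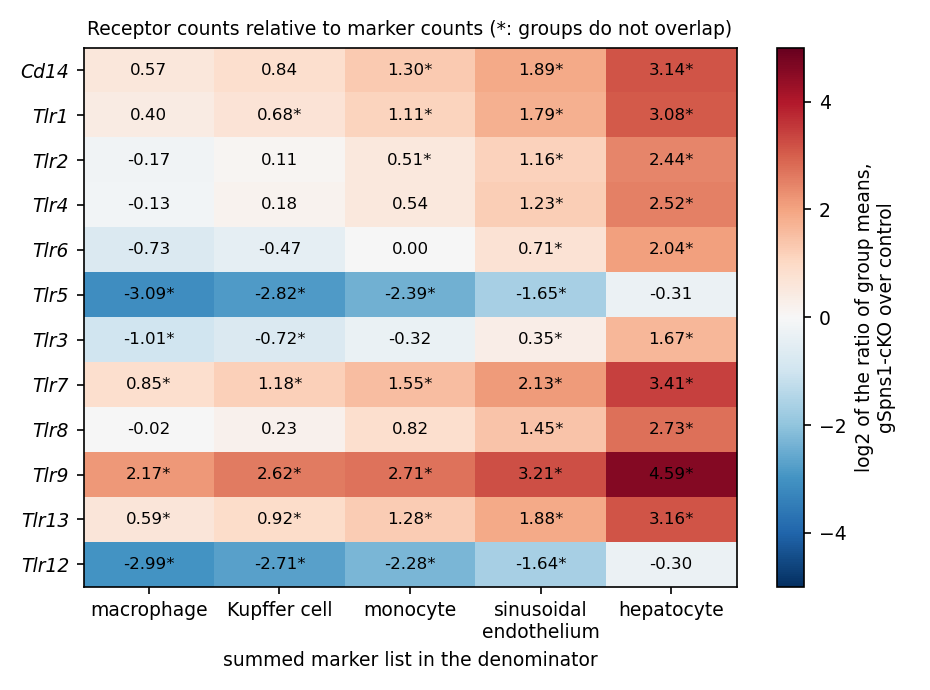
Log2 of the ratio of group means, g*Spns1*-cKO over control, for each receptor (rows) relative to the summed counts of 5 marker lists (columns), with red above 0, blue below 0 and an asterisk where the groups do not overlap. *Tlr5* runs from -3.09 relative to macrophage markers to -0.31 relative to hepatocyte markers, and *Cd14*, *Tlr1*, *Tlr7*, *Tlr9* and *Tlr13* are above 0 in every column.

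Markers of several other cell types differed as well. All 6 Kupffer cell markers were called higher (126 to 216 CPM summed in control livers, 431 to 682 in g*Spns1*-cKO livers), as were 5 of 6 monocyte markers (6.11 to 9.61 against 16.8 to 20.6), 4 of 5 tested neutrophil markers (3.16 to 5.84 against 9.83 to 16.1), 6 of 6 stellate cell markers (194 to 223 against 476 to 570), 4 of 4 cholangiocyte markers (5.42 to 6.64 against 22.7 to 31.3) and 5 of 6 sinusoidal endothelial markers (137 to 152 against 202 to 249). Of conventional dendritic cell markers 2 of 4 were called higher (6.95 to 8.85 against 10.4 to 12.4), and of T and NK cell markers 2 of 5 (1.49 to 2.05 against 2.94 to 4.89). B cells and plasmacytoid dendritic cells are known for their high *Tlr9*. Of B cell markers 0 of 4 tested were called by edgeR (1.501 to 2.81 against 2.68 to 3.42 CPM, overlapping), and the markers of plasmacytoid dendritic cells were too low to be tested (0.389 to 1.15 against 0.432 to 0.805 CPM, overlapping). No marker of any list was at 0 in all control livers. The part of these cell types in the members' values was not tested.

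Outside the 10 genes, mice carry *Tlr11*, *Tlr12* and *Tlr13*, which humans lack as working genes. *Tlr13*, an endosomal receptor for bacterial ribosomal RNA, had 23, 45 and 47 counts in control livers against 289, 301 and 308 in g*Spns1*-cKO livers. It rose with a log2 fold change of 2.52 ± 0.26 (edgeR adjusted p = 7.4e-05), and it was also higher without overlap relative to macrophage markers, at 1.04%, 1.49% and 1.63% against 1.72%, 2.24% and 2.31%. *Tlr12*, which recognises the parasite protein profilin, had 585, 788 and 699 counts in control livers against 610, 351 and 450 in g*Spns1*-cKO livers. The counts overlapped, whereas the scaled levels did not (20.8, 25.6 and 27.6 CPM against 16.9, 9.14 and 11.4 CPM). At 7.76 CPM per kb in control livers it stood above *Tlr1* to *Tlr9*. It fell by 0.98 ± 0.22 on the log2 scale (edgeR adjusted p = 0.00729), and this call was lost with scaling by library size only (-0.54, edgeR adjusted p = 0.0546). Like *Tlr5* it overlapped between the groups relative to hepatocyte markers. *Tlr11* had at most 10 counts in any library and was not tested.

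RefSeq windows of 250 bases (GRCm38.p6), each ending just before a transcript start given by RefSeq, were searched for 3 short motifs, since most members rose in the same livers. Windows were found for 7 of the 10 members, that is, for *Tlr1*, *Tlr2*, *Tlr3*, *Tlr5*, *Tlr6*, *Tlr8* and *Tlr9*. The letters GAGGAA, a core that the myeloid factor PU.1 can bind, were found on either strand for 3 of these 7 genes, *Tlr1* (in 1 of its 2 windows), *Tlr8* and *Tlr9*, and in 23.3% of all 32851 windows of that length. TGANTCA, the AP-1 motif, was found for *Tlr9* (6.75% of all windows), and GAAANNGAA, a motif of interferon regulatory factors, for *Tlr6* and *Tlr8* (7.13% of all windows). These shares are per window, whereas the 7 genes have 9 windows, with 2 each for *Tlr1* and *Tlr6*. Some RefSeq starts lie downstream of the gene ends given above, so that the window of *Tlr3*, the window of *Tlr6* with the GAAANNGAA matches and the second window of *Tlr1* lie within the gene, and those of *Tlr2* and the other *Tlr6* start lie partly within it. None of the 3 overlapped another in the windows of *Tlr1*, *Tlr8* and *Tlr9*. A match is a description of the letters and not of a bound factor. The windows with GAGGAA are shown with the match in capitals, on the strand of the gene. *Tlr1* is shown at chr5:64933559-64933808 on the minus strand, a window that runs 5 bases into the gene as placed above, *Tlr8* at chrX:167264330-167264579 on the minus strand, where the match is on the opposite strand and reads TTCCTC, and *Tlr9* at chr9:106222348-106222597 on the plus strand. *Tlr5*, the member that fell, at chr1:182954538-182954787 on the plus strand, is shown for comparison and has none of the 3 motifs. The windows of *Tlr2* and *Tlr3*, which rose, have none of the 3 motifs either.
*Tlr1*: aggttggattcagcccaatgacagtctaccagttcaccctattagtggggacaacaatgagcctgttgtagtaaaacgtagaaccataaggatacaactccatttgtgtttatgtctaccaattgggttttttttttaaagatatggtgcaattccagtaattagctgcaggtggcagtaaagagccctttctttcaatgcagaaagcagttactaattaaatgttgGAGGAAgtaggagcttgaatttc
*Tlr8*: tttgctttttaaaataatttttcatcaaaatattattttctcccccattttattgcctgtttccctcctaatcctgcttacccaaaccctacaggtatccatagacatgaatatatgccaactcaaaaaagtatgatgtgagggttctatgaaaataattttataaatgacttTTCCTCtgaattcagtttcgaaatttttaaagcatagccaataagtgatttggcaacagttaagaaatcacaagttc
*Tlr9*: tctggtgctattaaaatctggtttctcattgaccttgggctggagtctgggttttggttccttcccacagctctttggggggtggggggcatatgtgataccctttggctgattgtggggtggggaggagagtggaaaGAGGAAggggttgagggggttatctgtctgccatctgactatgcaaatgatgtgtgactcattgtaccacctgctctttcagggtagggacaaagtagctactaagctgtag
*Tlr5*: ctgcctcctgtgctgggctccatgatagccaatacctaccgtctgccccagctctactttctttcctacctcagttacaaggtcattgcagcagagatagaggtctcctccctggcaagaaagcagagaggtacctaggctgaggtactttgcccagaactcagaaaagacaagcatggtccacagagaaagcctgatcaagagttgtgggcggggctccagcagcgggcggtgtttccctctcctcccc

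The other genes of the pathway were read from lists by role. Of 85 genes outside the 10 members, 75 were tested, of which 32 rose and 11 fell in g*Spns1*-cKO livers, and their median log2 fold change was 0.276. Over all genes tested, 21.3% were called higher and 20.5% lower, and the median was 0.0138. The counts by role below are small and none was tested as a set. Among the 5 surface partners, 3 were higher and 0 lower. *Cd180*, a receptor relative that binds MD-1, rose by 2.64 ± 0.30 on the log2 scale, and *Ly86*, which encodes MD-1, rose by 1.65 ± 0.22 (edgeR adjusted p = 0.000112 and 0.000321). *Ly96*, which encodes the MD-2 partner of *Tlr4*, had 65, 87 and 53 counts in control livers against 132, 92 and 117 in g*Spns1*-cKO livers. Its log2 fold change was 0.32 ± 0.25 (edgeR adjusted p = 0.329) and its groups overlapped. Whether it differed from the change of *Tlr4* was not tested. *Lbp*, the plasma protein that delivers lipopolysaccharide to *Cd14*, was at -0.59 ± 0.52 (edgeR adjusted p = 0.419).

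Of the 7 genes that fold, move or cut the endosomal receptors, 2 were higher and 1 was lower. The proteases *Ctss* (log2 fold change 2.15 ± 0.16) and *Lgmn* (1.29 ± 0.14), which encode cathepsin S and legumain and cut these receptors in the lysosome, were higher (edgeR adjusted p = 1.5e-05 and 7.4e-05). *Cnpy3*, a chaperone of several Toll-like receptors, was lower (-0.58 ± 0.14, edgeR adjusted p = 0.00666), and its call was lost with scaling by library size only (-0.14, edgeR adjusted p = 0.417). *Unc93b1*, which escorts the endosomal receptors from the endoplasmic reticulum, was at 0.28 ± 0.16 (edgeR adjusted p = 0.203), with 977, 1520 and 961 counts in control livers against 2145, 1726 and 1700 in g*Spns1*-cKO livers. Scaled to CPM its groups overlapped.

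Adaptors differed in direction. *Myd88*, the adaptor of every Toll-like receptor except *Tlr3*, was lower, with 507, 563 and 535 counts in control livers against 509, 460 and 421 in g*Spns1*-cKO livers. Its level was 19.1 ± 1.73 CPM against 12.3 ± 1.74 CPM, for a log2 fold change of -0.64 ± 0.14 (edgeR adjusted p = 0.00431), and with scaling by library size only it was -0.20 with the call lost (edgeR adjusted p = 0.241). *Ticam1*, the TRIF adaptor of *Tlr3* and *Tlr4*, was higher (0.65 ± 0.12, edgeR adjusted p = 0.00230), as was *Pik3ap1*, which links the receptors to PI3K (0.90 ± 0.14, edgeR adjusted p = 0.000790). Of 16 kinases and ubiquitin ligases 3 were higher, with *Ikbke* at 1.16 ± 0.15 and *Tab1* at 0.59 ± 0.21, and 3 were lower, with *Chuk* at -0.65 ± 0.12 and *Irak1* at -0.39 ± 0.10. Both counts were close to the shares over all genes tested. *Tab1* lost its call without the first or the third control liver or the second or the third g*Spns1*-cKO liver, at edgeR adjusted p values of 0.0807 to 0.205, and with scaling by library size only *Chuk* lost its call (-0.20, edgeR adjusted p = 0.154) and *Irak1* changed direction (0.05).

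Of 11 transcription factors 7 were higher and 2 were lower. *Fos* (log2 fold change 2.61 ± 0.37) and *Jun* (1.24 ± 0.17), which form AP-1, were the highest (edgeR adjusted p = 0.000434 and 0.000364), and *Fos* was at 3.23 without the first control liver. *Rela* (-0.39 ± 0.11), the main activating subunit of NF-kB, and *Irf3* (-0.43 ± 0.10) were lower, and both changed direction with scaling by library size only (0.05 and 0.02). *Rela* also lost its call without the second control liver or the second or the third g*Spns1*-cKO liver, at edgeR adjusted p values of 0.0528 to 0.0756. Of 13 tested inhibitors 5 were higher, led by *Atf3* (2.48 ± 0.25) and *Tnfaip3* (1.54 ± 0.18, the deubiquitinase A20), and 2 were lower, *Tollip* (-0.42 ± 0.10) and *Cyld* (-0.38 ± 0.11), which changed direction with scaling by library size only (0.02 and 0.07). *Cyld* also lost its call without the second or the third liver of either group, at edgeR adjusted p values of 0.0574 to 0.0819.

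Of 23 target genes 16 were tested, 9 were higher and 1 was lower. The chemokine genes *Ccl4*, with 6, 6 and 3 counts in control livers against 41, 27 and 57, and *Ccl3*, with 6, 11 and 0 against 43, 20 and 50, were higher (2.61 ± 0.48 and 2.31 ± 0.71, edgeR adjusted p = 0.00181 and 0.0261). *Ccl3* lost its call without the first control liver or the first or the third g*Spns1*-cKO liver, at edgeR adjusted p values of 0.0543 to 0.0888, and its log2 fold change was 3.12 without the second control liver. Cytokine genes, named here after their values were seen, differed in level and call. *Il1a* had 48, 41 and 46 counts in control livers against 129, 111 and 122 in g*Spns1*-cKO livers and was higher (0.98 ± 0.24, edgeR adjusted p = 0.00859). *Tnf* did not pass the test, with 4, 5 and 7 counts in control livers against 10, 21 and 13 in g*Spns1*-cKO livers (log2 fold change 1.00 ± 0.54, edgeR adjusted p = 0.166). *Il1b* was at 1.03 ± 0.51 (edgeR adjusted p = 0.141) and did not pass either, and *Il6*, *Ifnb1*, *Il10* and *Il12a* had at most 3 counts in any library. *Saa3*, an acute-phase gene, was lower, with 315, 1126 and 1173 counts in control livers against 138, 172 and 191 in g*Spns1*-cKO livers (-2.83 ± 0.58, edgeR adjusted p = 0.0156). Its call was lost without any 1 g*Spns1*-cKO liver, at edgeR adjusted p values of 0.0698 to 0.0784.

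**Figure D5:**
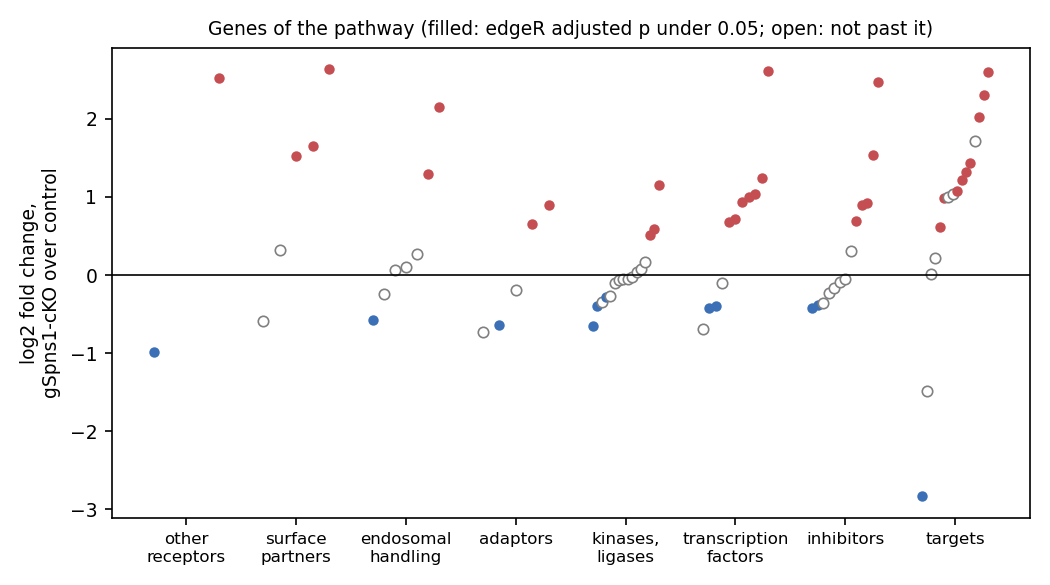
Log2 fold change of each tested pathway gene outside the 10 members, g*Spns1*-cKO over control, grouped by role, with filled points for genes past an edgeR adjusted p of 0.05 and open points for the others. *Cd180* (2.64), *Fos* (2.61) and *Ccl4* (2.61) are the highest points, 10 of 16 kinases and ligases are open points, and *Saa3* is the lowest point at -2.83.

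To place the members among other genes, the protein-coding genes with the most similar pattern over the 6 libraries were listed, as the root-mean-square distance of log2 CPM centred on each gene's mean, among 11867 candidate genes. For *Tlr7* the nearest was another receptor, *Tlr13* (distance 0.0989 on the log2 scale), followed by *Ear2* (0.0993). No neighbours are given for *Tlr9*, because its distances are set by the pseudocount added to its 0 and 2 control counts. *Tlr1* was nearest to *Plek* (0.0924) and the cholangiocyte marker *Krt19* (0.107). *Tlr2* was nearest to the stellate cell marker *Pdgfrb* (0.0873) and to *Synpo* (0.0907), and *Tlr4* to *Zfp248* (0.0772) and *Eps8* (0.105). *Tlr3* was nearest to *Stx7* (0.0657) and *Tiparp* (0.0701), and *Tlr6* to *Ier5l* (0.0866) and *Sox18* (0.113). *Tlr5* was nearest to *Chad* (0.0983) and *Gm4952* (0.143). *Tlr8* (*Mrc2* 0.243 and *Elf3* 0.254) and *Cd14* (*Sytl2* 0.247 and *Mmp2* 0.286) had no neighbour as close. All of these distances take in the difference between the groups as well as the spread within them. The pseudocount also enters those of *Tlr8*, since its count in the third control liver lay below the floor of detection.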

How the data were processed

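Liver RNA-Seq of 3 control and 3 g*Spns1*-cKO mice was analysed, 1 library per mouse, with groups and replicate numbers taken from the sample labels. The authors deposited whole-number counts per gene, not normalized, with poly-A libraries made by a sequencing service; the submitters' processing notes name fastp, HISAT2 2.0.5, featureCounts 1.5.0-p3 and mm10. Whether counting used strand, and the age at collection, are not given in the sources used here. The table's gene lengths were used for levels per kb; its FPKM values, group signals, fold changes and p-values, which hold the authors' own comparison, were not used.

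Counts were filtered by filterByExpr with the group (15449 genes kept), scaled by TMM and tested in R 4.3.3 with edgeR 4.0.16 (robust quasi-likelihood fit, no covariate, Benjamini-Hochberg adjustment over all genes tested, threshold 0.05). Libraries held 30350002 to 35295611 counts. No pair of libraries of a group agreed within sampling noise (chi-square per gene 42.5 to 126). Likeness used a pseudocount of 0.1 CPM and genes averaging 1 CPM or more. Alternatives were DESeq2 1.42.0, library-size and upper-quartile scaling, other count filters, a threshold of 0.01, a replicate block, leaving out each library and other marker lists. Positions are from GENCODE M21 (GRCm38), where 97.1% of 26582 matched genes had the deposited coordinates; promoter windows, relative to RefSeq transcript starts, are from RefSeq. The fit was tested on simulated data. The members and lists were chosen with earlier results of these data known. Beside the members, *Spns1*, *Tlr11* to *Tlr13* and *Adgre1*, the rule named in each pathway list the up to 2 highest and up to 2 lowest called genes whose groups did not overlap, and the 2 genes nearest each member (left out for *Tlr9*, whose distances rest on the pseudocount); *Lbp*, *Ly96*, *Unc93b1*, *Lcn2*, *Tnf* and the other cytokine genes fall outside it and were named after their values were seen.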

Additional observations from a re-analysis of the deposited data

How the results depend on the processing

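The 9 higher and 1 lower members were called in the same number by DESeq2, with upper-quartile scaling, with a filter of 1 count in any library and with a replicate block, which also gave 3084 higher and 3016 lower genes and 29 higher and 11 lower pathway genes. The block ended the calls of *Ccl3* and *Tab1*, and upper-quartile scaling those of *Cyld*, *Rela* and *Spns1*. Replicate numbers did not pair the mice (correlations of same-numbered deviations 0.0421, 0.0317 and -0.0266), and not every library correlated best with its own number. Requiring 10 counts in every library left 6 members tested, of which 5 were higher. With library size only, 0 members were lower, 7289 genes were higher and 970 lower, and 1 pathway gene was lower. At an adjusted p of 0.01, 1983 genes were higher, 1907 lower and 7 pathway genes lower. Directions reversed with library size only for *Cyld* (0.0676), *Irak1* (0.0510), *Irf3* (0.0157), *Rela* (0.0512) and *Tollip* (0.0236). With monocyte in place of macrophage markers, 5 members had a higher and 1 a lower ratio (2 and 2 with macrophage markers). The causes were not tested, beyond the smaller number of genes tested and the stricter threshold.

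Without 1 library at a time, 8 to 9 members were higher and 1 lower, 2365 to 3213 genes were higher and 2125 to 3216 lower, 24 to 29 pathway genes were higher and 7 to 14 lower, and 2 to 3 members had a higher and 2 to 3 a lower ratio to macrophage markers. Of the values of single genes under all alternatives, 427 kept direction and side of the threshold, 43 lost the call and 5 reversed. Counts under 10 in at least 1 control liver limit *Tlr6*, *Tlr7*, *Tlr8* and *Tlr9*.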

Other observations

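The first control liver stood apart from the other control livers in acute-phase genes that belong to the pathway lists, which were named after their values were seen and are given with no test. *Lcn2*, which encodes an iron-binding protein secreted in inflammation, had 150 counts in the first control liver and 5150 and 11874 in the other controls, against 3484, 1973 and 3156 in g*Spns1*-cKO livers. *Lbp* had 1675 counts in the first control liver against 6058 and 4740 in the other controls, and 2486, 4860 and 3874 in g*Spns1*-cKO livers. Among the members, the same liver had the highest control count of *Tlr5* (288) and the lowest of *Tlr7* (7).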
